A study of Mus musculus with 12 samples.

Results

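The axon guidance ligand and receptor families were followed across the adult mouse retina. Members were chosen by symbol alone, as autosomal protein_coding genes of the Eph (Epha, Ephb), ephrin (Efna, Efnb), semaphorin (Sema3 to Sema7), plexin (Plxn), neuropilin (Nrp), Robo, Slit, Unc5 and netrin (Ntn, Ntng) families. The rule took 69 of the 21422 autosomal protein_coding genes, among 37991 genes in all, and they split into 38 ligand and 31 receptor entries. Efna5 and Ntng1 each appeared under 2 Ensembl identifiers, so the 69 entries carried 67 symbols. The names, positions and counts of these genes follow Ensembl release 67 on NCBI37, the build known as mm9.

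Axon guidance molecules are surface or secreted proteins that attract or repel growing axons. Ephrins bind Eph receptor tyrosine kinases, semaphorins bind plexins, with neuropilins as co-receptors for the secreted class 3 semaphorins, Slits bind Robo receptors, and netrins bind receptors that include Unc5. In the developing visual system these families order retinal ganglion cell axons in the optic nerve, at the chiasm and across the map in the brain, and several of them also place neurites in the layers of the retina and guide its blood vessels.

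The study sequenced polyadenylated RNA from retinas of male mice aged 8 weeks, in 12 libraries that each pooled 6 to 8 retinas. F0 C57BL/6J is the reference inbred strain and F0 Cast/EiJ a wild-derived inbred strain. F1 B6xCast is the hybrid of a C57BL/6J father and a Cast/EiJ mother, and F1 CastxB6 is the reciprocal hybrid. Each group had 3 libraries and none carried a transgene or a treatment. All mice were male, and whether the replicate pools shared litters was not stated in the labels, so p-values measure the spread between these pools. In F1 libraries the authors estimated each parental allele on its own. Differences between F0 strains ask which genes differ between whole animals. Differences between alleles in the same pool of F1 retinas ask which of them act in cis on the same chromosome. The gap between the F0 and the allelic difference measures the trans part. Read pairs that map to 1 gene alone, and in F1 to 1 allele of it, are called unique hits and numbered 8158534 to 12363291 per library. Levels compared between libraries are the authors' count equivalents, which are normalized read counts. Each F1 allele was scaled like a whole F0 library, so that the level of an F1 gene is the mean of its alleles.

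Markers of retinal cell types were present, with no list at 0, and the sums of several lists moved with the F0 strain. The summed count equivalents of 7 ganglion cell markers were 12220 to 13400 in F0 C57BL/6J and 8548 to 9348 in F0 Cast/EiJ, with 3 of 7 called lower. Sums were also lower in F0 Cast/EiJ, without overlap, for 6 rod markers (690200 to 736500 against 745500 to 754000), 5 cone markers (7563 to 8318 against 10470 to 11960), 2 pericyte markers (404 to 495 against 983 to 1123), 2 astrocyte markers (141.4 to 189.6 against 214.9 to 238.1), 3 microglial markers (99.0 to 188.6 against 197.6 to 206.3) and 5 markers of the retinal pigment epithelium (48.1 to 73.0 against 146.2 to 188.1). They were higher for 5 amacrine markers (14750 to 15410 against 12490 to 14050) and 5 endothelial markers (2928 to 3727 against 1921 to 2711). Of the 5 amacrine markers 1 was called higher. Slc6a9 did not overlap between the strains (3570 to 3860 against 2260 to 2830), whereas Gad1, Slc32a1, Tfap2b and Calb2 did. Kdr made up most of the endothelial sum, and of the 5 endothelial markers 1 was called higher and 2 lower. Ttr made up most of the sum of the retinal pigment epithelium, at 28.3 to 51.5 against 126 to 155. Of its markers 2 were tested and 1 was called lower. Rpe65 and Best1 overlapped between the strains, Tyr was lower in F0 Cast/EiJ and Mlana higher. Of the 6 rod markers 0 were called lower and 1 higher. In bulk retina, fewer cells of a type and less RNA per cell cannot be told apart, and the part of these shifts in any F0 difference given here was not tested.

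Most families kept at least 1 member at an appreciable level in the adult retina. Levels of different genes are compared per length, as FPKM (fragments per kilobase of transcript, scaled for depth), taken as the mean of the 6 F0 libraries. At this scale 54 of the 69 entries reached 1 FPKM and 11 reached 10 FPKM, with a median of 3.24 FPKM. The whole set made up 0.23% to 0.25% of the count equivalents in F0 C57BL/6J and 0.281% to 0.283% in F0 Cast/EiJ. Between the alleles in F1 the ranges overlapped, at 0.246% to 0.273% for C57BL/6J and 0.265% to 0.273% for Cast/EiJ.

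Among the ligands, Ntng2, a netrin-G anchored to the membrane that acts at synapses, stood highest of all entries. Its level was 90.1 ± 16.1 FPKM (SD, n = 3) in F0 C57BL/6J and 115.0 ± 27.8 FPKM (SD, n = 3) in F0 Cast/EiJ, a range of 76.7 to 147.1 FPKM over the 12 libraries. A processed transcript on the same strand, 6530402F18Rik, overlaps Ntng2. Sema3f, a secreted class 3 semaphorin, followed at 35.6 FPKM, Slit2, a secreted repellent of retinal axons, at 25.6 FPKM, Sema7a, a semaphorin anchored to the membrane, at 21.7 FPKM and the main Ntng1 entry at 18.5 FPKM, with the shorter entry at 2.12 FPKM. Slit2 spanned 21.8 to 28.4 FPKM over the 12 libraries. In F0 C57BL/6J its libraries overlapped those of neither Sema3f nor Sema7a, the next members in the order, whereas in F0 Cast/EiJ those of Sema7a and Slit2 overlapped. Sema4 ran from Sema4f at 1.66 FPKM to Sema4g at 10.7 FPKM, Sema5 from Sema5b at 2.82 FPKM to Sema5a at 3.90 FPKM, and Sema6 from Sema6d at 1.96 FPKM to Sema6a at 9.83 FPKM. The lowest class 3 member by the F0 mean was Sema3d, at 0.346 FPKM.

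Ephrins stood lower. Efnb3 at 5.31 FPKM and Efnb2 at 4.46 FPKM, transmembrane ligands, and Efna3 at 3.67 FPKM and Efna5 at 3.51 FPKM, ligands held by a lipid anchor, led them. Efna2, known like Efna5 for the map of retinal axons, stood at 1.15 FPKM and Efna4 at 0.113 FPKM. Classical netrins were scarce, with Ntn4 at 2.37 FPKM, Ntn1, the secreted cue of the optic disc, at 0.131 FPKM and Ntn5 at 0.0499 FPKM. Slit3 was at 0.222 FPKM, the lowest Slit on this per-length scale.

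Among the receptors, Plxna2 led at 20.4 FPKM, with 15.6 ± 0.748 FPKM in F0 C57BL/6J and 25.2 ± 1.97 FPKM in F0 Cast/EiJ (SD, n = 3 each). Robo2, the main Slit receptor of ganglion cell axons, came next at 13.8 FPKM, then Plxnb1 at 13.6 FPKM, Plxnb2 at 12.1 FPKM and Unc5a, a netrin receptor that mediates repulsion, at 10.4 FPKM. Plxnd1, a receptor of endothelial cells, was the lowest plexin at 1.02 FPKM. Epha5 led the EphA receptors at 8.17 FPKM and Epha1 closed them at 0.109 FPKM. Ephb2, which acts in the dorsal to ventral order of retinal axons, led the EphB receptors at 6.32 FPKM, with Ephb4 lowest at 0.510 FPKM. Nrp2 stood at 3.55 FPKM and Nrp1 at 1.57 FPKM, Unc5c at 3.42 FPKM, Unc5b at 1.54 FPKM, Plxnc1, the plexin that binds Sema7a, at 2.85 FPKM, and Robo4, an endothelial Robo, at 0.402 FPKM.

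**Figure D1:**
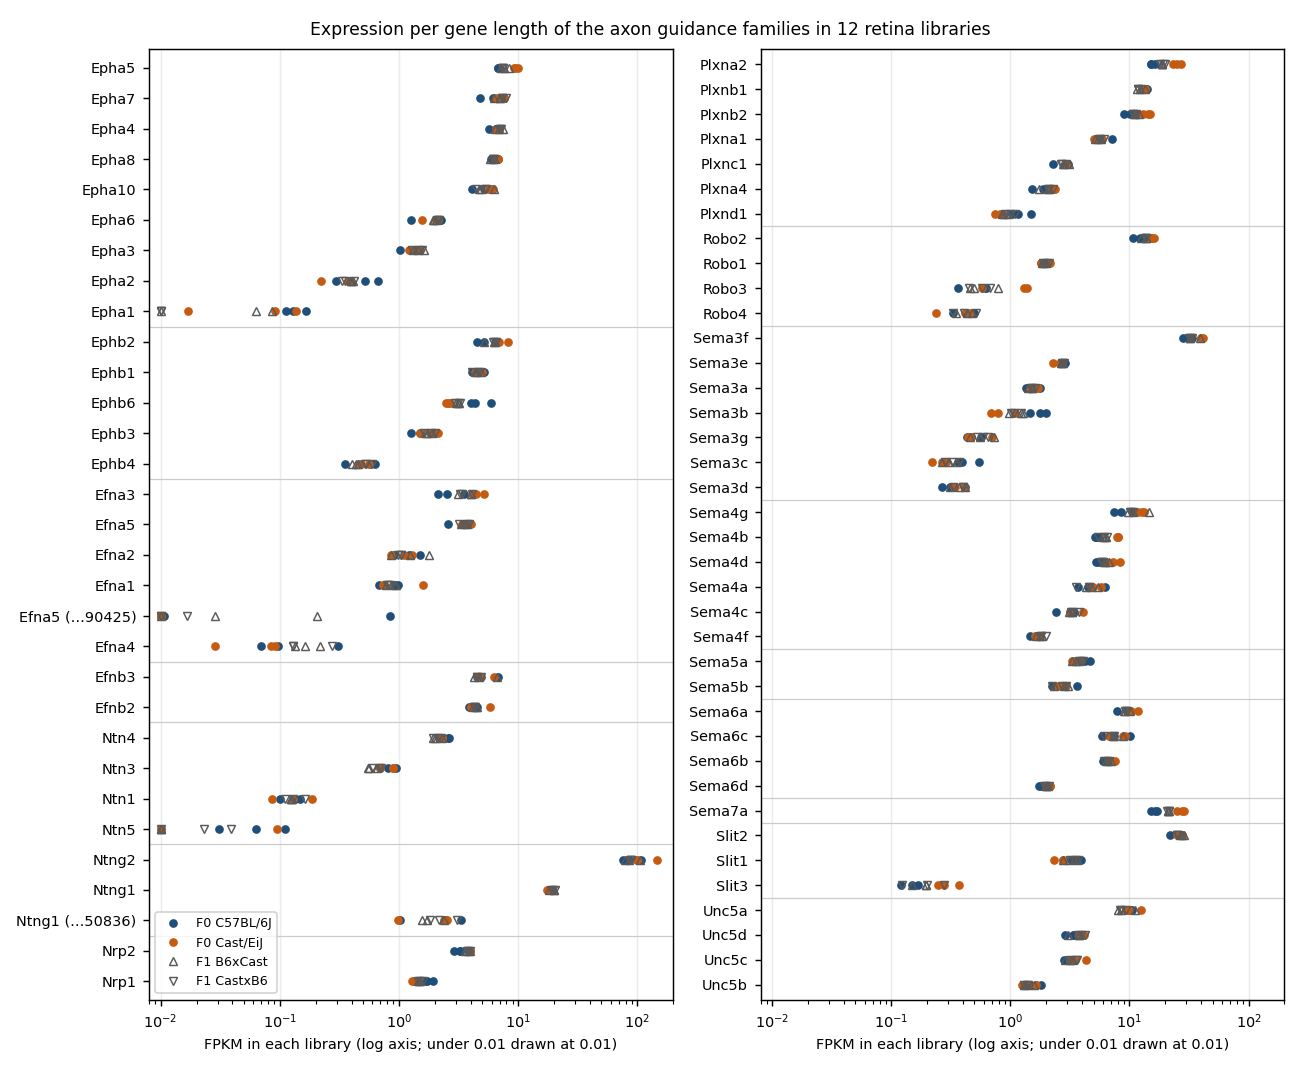
FPKM of the 69 entries (log axis) in each of the 12 libraries, grouped by family, with filled circles for F0 libraries and triangles for F1 libraries, whose alleles were averaged. Ntng2 lies above the other entries in every library and spans 76.7 to 147.1 FPKM, while the lowest plotted classical netrin, Ntn5, averages 0.0499 FPKM in F0.

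Between the F0 strains, ligands and receptors moved in both directions, and more members were higher than lower in F0 Cast/EiJ. In a limma fit of log2(count equivalents + 1), adjusted by Benjamini-Hochberg over 14452 genes, 22 of the 64 members tested passed an adjusted p under 0.05, or 34.4%, against 33.8% of all genes. Of these, 15 were higher in F0 Cast/EiJ, where 17.2% of all genes were called higher, and 7 were lower, where 16.6% of all genes were called lower. With TMM factors the split was 11 higher of 19 called. The median log2 difference was 0.13 over the members and 0.03 over all genes. Epha1, Efna4, Ntn5 and the shorter entries of Efna5 and Ntng1 had too few counts for this test.

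Semaphorins gave 8 of the 11 ligand calls, and were also most of the 34 ligands tested. Class 3 held 7 of those tested, class 4 held 6, class 5 held 2, class 6 held 4 and class 7 held 1. Of all genes 33.8% were called. Sema7a rose from 948, 1030 and 1060 count equivalents in the F0 C57BL/6J libraries to 1700, 1560 and 1780 in those of F0 Cast/EiJ. The groups did not overlap, and the log2 difference was 0.73 ± 0.08 (SE; limma adjusted p = 0.00016). In class 4, whose members are transmembrane ligands, Sema4b rose by 0.65 (SE 0.08), Sema4g by 0.54 (SE 0.12) and Sema4d, a ligand of Plxnb1, by 0.50 (SE 0.10) on the log2 scale, with no library of one strain inside the range of the other.

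Class 3 split. Sema3f was higher in F0 Cast/EiJ, at 2600, 2610 and 2700 against 2160, 2050 and 1830 count equivalents. Sema3b, a secreted relative whose gene lies 72.3 kb away on chromosome 9, was lower, at 68.5, 51.0 and 45.3 against 89.7, 110 and 127 count equivalents. Their log2 differences were 0.39 ± 0.08 (SE; limma adjusted p = 0.0043) and -0.98 ± 0.21 (SE; limma adjusted p = 0.0067). Sema3c had 41.4, 38.9 and 57.9 count equivalents in F0 C57BL/6J and 22.9, 28.4 and 17.1 in F0 Cast/EiJ, so every F0 Cast/EiJ library lay below the lowest of the other strain. The log2 difference was -0.99 ± 0.27 (SE; limma adjusted p = 0.02), and it was -0.82 with an adjusted p of 0.08 without F0 C57BL/6J replicate 3 and -0.81 with an adjusted p of 0.06 without F0 Cast/EiJ replicate 3. Sema5a, a transmembrane ligand that keeps neurites out of the outer retina, fell by 0.45 (SE 0.08). No class 6 member passed, with Sema6b closest at 0.19 (SE 0.09; limma adjusted p = 0.13).

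The other ligands that passed were Efna3, Slit1 and Slit3. Efna3 had 111, 150 and 92.4 count equivalents in F0 C57BL/6J and 183, 199 and 224 in F0 Cast/EiJ, a log2 difference of 0.80 ± 0.18 (SE; limma adjusted p = 0.01) between groups that did not overlap. Slit3 rose from 16.9, 12.1 and 14.9 to 27.5, 25.0 and 37.4 count equivalents, by 0.98 ± 0.27 (SE; limma adjusted p = 0.023), while Slit1 fell by 0.41 (SE 0.12). Leaving out F0 C57BL/6J replicate 2, F0 C57BL/6J replicate 3 or F0 Cast/EiJ replicate 3 left Slit3 at 0.86, 0.995 and 0.81 with adjusted p of 0.08, 0.056 and 0.075. Slit2 showed a difference of 0.01 (SE 0.09), Efna5 of 0.23 (SE 0.16), Efna2 of -0.12 (SE 0.25) and Ntn1 of 0.01 (SE 0.35), none of which passed.

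Receptor calls were led by Robo3, which acts in axons that cross the midline. Its count equivalents were 38.1, 17.0 and 22.1 in F0 C57BL/6J and 106, 93.3 and 51.6 in F0 Cast/EiJ. The 3 F0 Cast/EiJ libraries were all higher but spread widely, and the log2 difference was 1.68 ± 0.35 (SE; limma adjusted p = 0.0066), a 3.2-fold higher level on the log2(value + 1) scale. On the deposited log expression the Robo3 difference was 0.97 and the call was lost (limma adjusted p = 0.11). With no filter the call was also lost (limma adjusted p = 0.097). Robo4, whose gene lies 1.6 kb from Robo3, differed by -0.24 (SE 0.31) and did not pass. Robo2 rose by 0.39 (SE 0.08; limma adjusted p = 0.0066).

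The plexins Plxna2, Plxnb2 and Plxna4 rose by 0.67 (SE 0.08), 0.45 (SE 0.13) and 0.36 (SE 0.12), while Plxnd1 fell by 0.58 (SE 0.16). Plxnc1 differed by 0.09 (SE 0.12) and did not pass. Nrp1, the co-receptor of Sema3a and of a vascular growth factor, fell by 0.38 (SE 0.12). Ephb6, an Eph receptor without kinase activity, was lower in F0 Cast/EiJ, at 183, 193 and 178 against 288, 312 and 289 count equivalents (log2 difference -0.68 ± 0.10, SE; limma adjusted p = 0.00096). Epha5, Epha7 and Ephb2 rose by 0.41 (SE 0.08), 0.36 (SE 0.11) and 0.32 (SE 0.10). A pseudogene, Hmgn2-ps1, overlaps Epha5 on the opposite strand with a mean of 678 count equivalents in F0, and the libraries did not keep strand. None of the 4 Unc5 receptors passed, with Unc5c at 0.03 (SE 0.11).

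Epha7, Ephb2, Nrp1, Plxna4, Plxnb2, Plxnd1 and Slit1 each lost the call when 1 of 4 or 5 of the 6 F0 libraries was left out, at limma adjusted p from 0.0504 to 0.13. The Plxna4 difference was 0.24 without F0 C57BL/6J replicate 1. The F0 count was 14 without F0 Cast/EiJ replicate 3, 12 on the deposited log expression and 9 with no filter on low counts. The 7 members Epha5, Ephb6, Plxna2, Sema3f, Sema4b, Sema4d and Sema7a were called in all 13 alternative settings.

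Inside F1 retinas, the alleles of many members were expressed unequally, with Slit3, Sema7a and Sema3g higher and Ntn1, Slit1 and Ephb6 lower from the Cast/EiJ allele. The limma fit, with the F1 library as a block and Benjamini-Hochberg adjustment over 13414 polymorphic genes, called 31 of 64 members, or 48.4%, against 47% of all genes. The Cast/EiJ allele was the higher one in 17 of them and the lower one in 14, beside 23.5% of all genes in each direction. Either cross fitted alone called 20. Epha1, Efna4, Ntn3, Ntn5 and the shorter Efna5 entry had under 10 allele-specific unique hits per library on average and were not tested.

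Sema7a, on chromosome 9 at 57787920 to 57810671, was the most sharply separated member. Over the 6 F1 libraries its C57BL/6J allele had 746, 802 and 814 count equivalents (lowest, median, highest) and its Cast/EiJ allele 1760, 1805 and 1830. The Cast/EiJ allele was higher in 6 of 6 libraries, with no overlap, by a log2 difference of 1.19 ± 0.04 (SE; limma adjusted p = 4.1e-13), or 2.28-fold. Unique hits showed the same order in each library, from 451 against 954 to 646 against 1403.

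Slit3, on chromosome 11 at 34934726 to 35522009, was expressed at a low level from both alleles. Its C57BL/6J allele had 4.82, 10.2 and 12.7 count equivalents and its Cast/EiJ allele 16.1, 27.2 and 42.6 (lowest, median, highest), again with no overlap. The log2 difference was 1.42 ± 0.23 (SE; limma adjusted p = 7e-05), resting on 2 to 6 unique hits per library for the C57BL/6J allele and 6 to 23 for the Cast/EiJ allele. Sema3g, a class 3 semaphorin of blood vessels on chromosome 14 at 32031046 to 32043536, had 26.1, 34.5 and 43.7 count equivalents from the C57BL/6J allele and 51.1, 59.8 and 79.4 from the Cast/EiJ allele. The alleles did not overlap, and the log2 difference of 0.82 ± 0.15 (SE; limma adjusted p = 3e-04) stood beside an F0 difference of 0.10 (SE 0.24), which did not pass.

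The promoters of these 3 genes are shown because they had the largest differences toward the Cast/EiJ allele among called members with an entry in the RefSeq promoter table (GRCm38.p6, a C57BL/6J genome). Each run holds the 250 bases before the annotated start on the gene's strand. Capitals mark GGGCGG or its reverse complement, the core of the GC box, searched on both strands, where overlapping matches join into a longer stretch.
Slit3 (chr11:35121206-35121455, plus strand): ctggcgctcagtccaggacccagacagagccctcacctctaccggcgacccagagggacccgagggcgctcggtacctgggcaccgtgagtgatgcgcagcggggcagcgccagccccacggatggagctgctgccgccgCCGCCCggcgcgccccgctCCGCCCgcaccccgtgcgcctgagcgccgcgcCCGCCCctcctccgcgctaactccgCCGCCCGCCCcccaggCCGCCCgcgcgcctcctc
Sema7a (chr9:57939862-57940111, plus strand): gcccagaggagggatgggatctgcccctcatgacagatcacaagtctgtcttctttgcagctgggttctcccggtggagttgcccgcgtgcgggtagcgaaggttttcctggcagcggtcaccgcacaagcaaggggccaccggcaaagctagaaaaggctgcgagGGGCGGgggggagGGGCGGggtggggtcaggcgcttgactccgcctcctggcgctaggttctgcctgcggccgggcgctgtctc
Sema3g (chr14:31217623-31217872, plus strand): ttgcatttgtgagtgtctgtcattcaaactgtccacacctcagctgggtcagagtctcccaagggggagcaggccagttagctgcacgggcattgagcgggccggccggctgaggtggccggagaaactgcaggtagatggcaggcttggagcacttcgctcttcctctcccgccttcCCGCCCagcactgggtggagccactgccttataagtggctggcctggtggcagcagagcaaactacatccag
The sequences hold 6, 2 and 1 GC box matches in the order printed, with 78.8%, 66.4% and 60.4% G and C. Of the 74 windows of the 58 member symbols matched, 53 (71.6%) held a GC box match, against 32.7% of the 32851 windows of all genes in the table. This motif was added after seeing the data. The G and C content of member windows was not compared with that of all windows, so its part in this contrast was not tested. The motif TAATCC, bound by CRX, the homeodomain factor of photoreceptors, occurred on either strand in 2 member windows, those of Robo3 and Robo4, or 2.7%, against 6.25% of all windows. None of the 3 sequences printed holds it. These letters describe the reference genome, and the Cast/EiJ sequence was not used here.

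The lower Cast/EiJ alleles were led by a pair of low genes. Ntn1 had 14.9, 15.7 and 20.4 count equivalents from the C57BL/6J allele and 6.36, 8.30 and 12.6 from the Cast/EiJ allele (lowest, median, highest), with the C57BL/6J allele higher in every F1 library. The log2 difference was -0.87 ± 0.19 (SE; limma adjusted p = 0.0013), and with F1 B6xCast alone it was -0.69 with an adjusted p of 0.06. The shorter Ntng1 entry, a stretch on chromosome 3 at 109946603 to 109946929 that lies 8.2 kb from the main gene, was called at -0.91 ± 0.31 (SE; limma adjusted p = 0.025). Its libraries disagreed between the crosses, since the Cast/EiJ allele was higher in 2 of 3 F1 B6xCast libraries and lower in all 3 F1 CastxB6 libraries, and F1 B6xCast alone gave 0.17. Without F1 B6xCast replicate 1, F1 B6xCast replicate 2 or F1 CastxB6 replicate 2 its log2 difference was -0.69, -0.93 and -0.73, with adjusted p of 0.18, 0.056 and 0.085. The main Ntng1 entry, at a mean of 575 count equivalents in F0, differed by 0.12 (SE 0.05; limma adjusted p = 0.058) between the alleles.

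**Figure D2:**
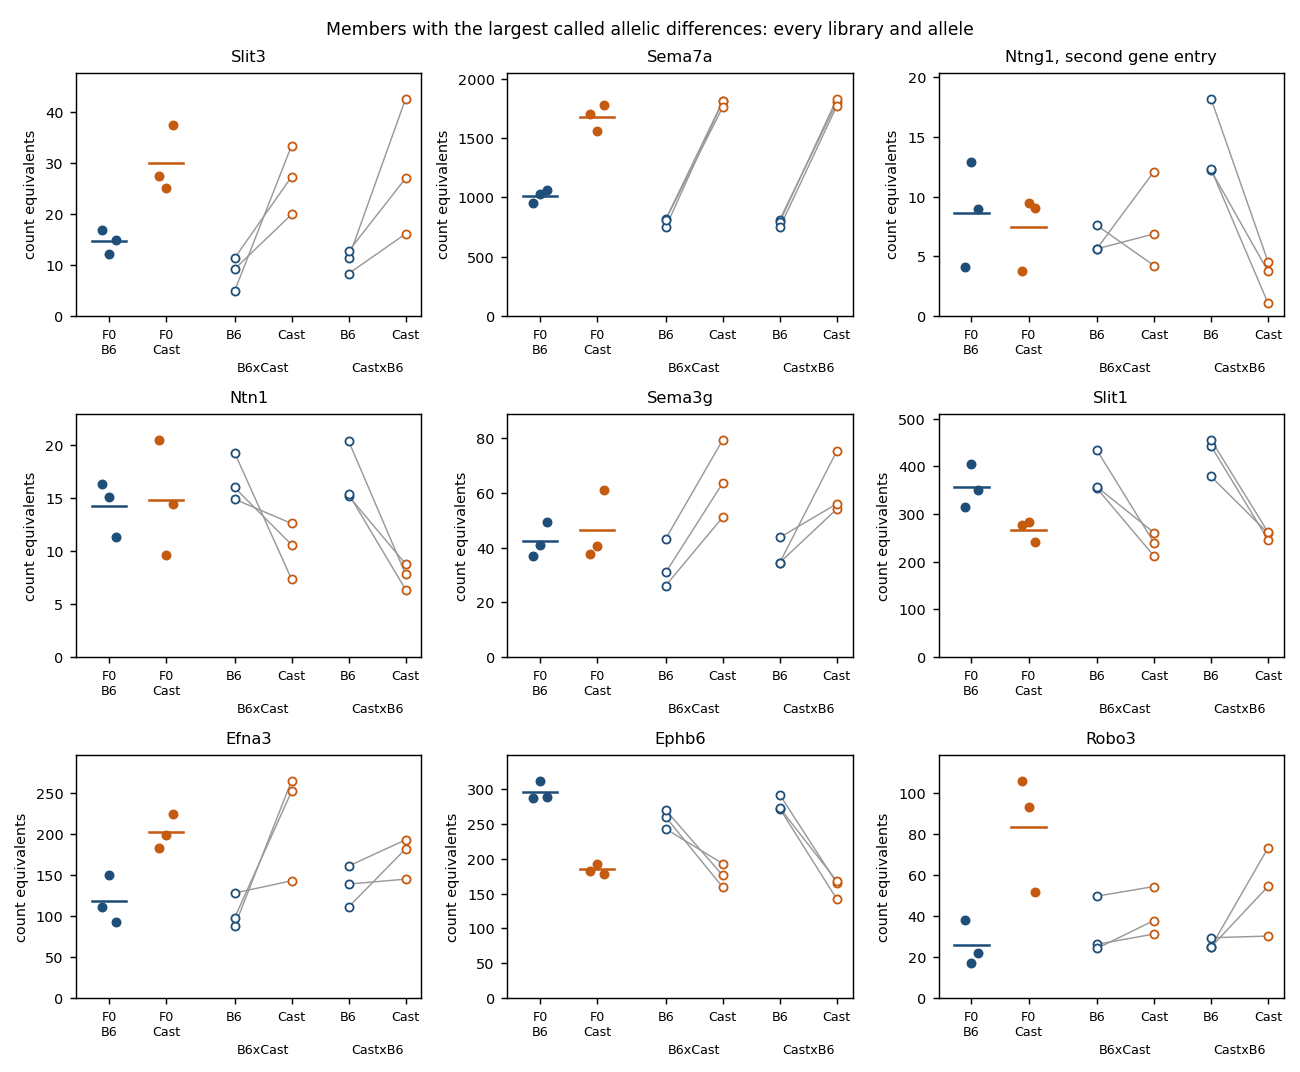
Count equivalents of the 9 members with the largest called allelic differences. Filled points are F0 libraries with their mean as a bar, and open points are the C57BL/6J (B6) and Cast/EiJ (Cast) alleles of each F1 library, joined by a line. Every line of Sema7a and Slit3 climbs toward Cast/EiJ, every line of Ntn1, Slit1 and Ephb6 falls, and the shorter Ntng1 entry goes both ways in F1 B6xCast.

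Slit1, a secreted repellent like Slit2, had 354, 406.5 and 456 count equivalents from the C57BL/6J allele and 212, 253 and 262 from the Cast/EiJ allele, with no overlap and a log2 difference of -0.70 (SE 0.08). Slit2, the most abundant Slit, had -0.08 (SE 0.06) and did not pass. The Slit family therefore held members whose Cast/EiJ allele was higher, lower and not called. For Slit2 the count equivalents of the alleles (2260 to 2960) lay above those of F0 (1710 to 2130), whereas the FPKM ranges of F0 and F1 libraries overlapped.

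Other ligands with unequal alleles were Efna3, at 0.69 (SE 0.16), Sema4b at 0.60 (SE 0.06), Sema3b at 0.57 (SE 0.17), Sema6d at 0.39 (SE 0.07), Sema4g at 0.30 (SE 0.10), Sema4d and Sema6b each at 0.17 (SE 0.06), Sema3a at -0.26 (SE 0.10), Efnb3 at -0.38 (SE 0.12), Efnb2 at -0.20 (SE 0.05), Sema5a at -0.17 (SE 0.05) and Sema3f at -0.15 (SE 0.05). For Sema4b the C57BL/6J allele had 286 to 359 and the Cast/EiJ allele 384 to 554 count equivalents, without overlap. Efna3 was estimated at 160 count equivalents in F0 but rested on 17.7 allele-specific unique hits per F1 library, and F1 CastxB6 alone gave 0.34 with an adjusted p of 0.26. Both members of the ephrin-B family on the autosomes were lower from the Cast/EiJ allele, Efnb2 at 270 to 323 against 329 to 355 count equivalents, without overlap.

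Receptors called between alleles included 3 of the 4 Robo genes, all higher from the Cast/EiJ allele. Robo2 had 1320, 1455 and 1510 count equivalents from the C57BL/6J allele and 1640, 1755 and 1780 from the Cast/EiJ allele, with no overlap and a log2 difference of 0.26 (SE 0.05). Robo1, which shares the Slit ligands with Robo2, gave 0.22 (SE 0.06), and Robo3 gave 0.61 (SE 0.24; limma adjusted p = 0.0497), a call that was lost in 12 of 20 alternative settings. Nrp1 and Nrp2, the co-receptors of class 3 semaphorins, went in opposite directions, at -0.36 (SE 0.11) and 0.46 (SE 0.07).

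Plxna2 at 0.26 (SE 0.04) and Plxna4 at 0.22 (SE 0.07) were higher from the Cast/EiJ allele, and Plxnd1 at -0.46 (SE 0.09) and Plxnb1 at -0.11 (SE 0.04) lower. Unc5d and Unc5a likewise split, at 0.38 (SE 0.06) and -0.38 (SE 0.08), with Unc5c at -0.07 (SE 0.07) not called. Of the 13 Eph receptors tested, Ephb6 at -0.68 (SE 0.06) and Epha4 at -0.15 (SE 0.05) passed. Ephb6 was lower from the Cast/EiJ allele in 6 of 6 libraries, at 142 to 193 against 243 to 292 count equivalents.

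The 13 members Ephb6, Nrp2, Plxna2, Plxnd1, Robo2, Sema3g, Sema4b, Sema6d, Sema7a, Slit1, Slit3, Unc5a and Unc5d were called between the alleles in every alternative setting that tested them. The other 18 lost the call in at least 1 setting. Epha4, Efnb3, Nrp1, Plxna4, Plxnb1, Robo3, Sema3a, Sema3f, Sema4d, Sema4g and Sema6b lost it without at least 1 F1 library, at limma adjusted p from 0.0504 to 0.29. The Sema3a call was kept in 5 of 21 settings, was lost with the replicate block (adjusted p = 0.064), with TMM factors (adjusted p = 0.054) and without any single F0 library, and the difference was -0.14 without F1 B6xCast replicate 3 and -0.15 without F1 CastxB6 replicate 1. The Nrp1 difference was -0.20 without F1 B6xCast replicate 3 and that of Sema6b 0.11 without F1 CastxB6 replicate 3, both with the call lost, and Sema4d changed sign, to -0.023, on the deposited log expression.

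Set side by side over the 63 members tested in both comparisons, 15 were called in the same direction between F0 strains and between alleles, 2 in opposite directions, 5 between F0 strains alone, 13 between alleles alone and 28 in neither. Over all genes tested in both, 22.2% were called in the same direction, beside 23.8% of the members. The other shares, members first, were 3.17% and 1.23% in opposite directions, 7.94% and 9.86% between F0 strains alone, 20.6% and 23.7% between alleles alone, and 44.4% and 43.0% in neither. The 15 were Ephb6, Efna3, Nrp1, Plxna2, Plxna4, Plxnd1, Robo2, Robo3, Sema4b, Sema4d, Sema4g, Sema5a, Sema7a, Slit1 and Slit3. Ephb6 was the closest match, at -0.68 in both, and Sema4b gave 0.65 and 0.60. These allelic values average over crosses that differed. Ephb6 had -0.55 in F1 B6xCast and -0.82 in F1 CastxB6, and Sema4b 0.85 and 0.34. The F0 and allelic differences share no column of the data.

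**Figure D3:**
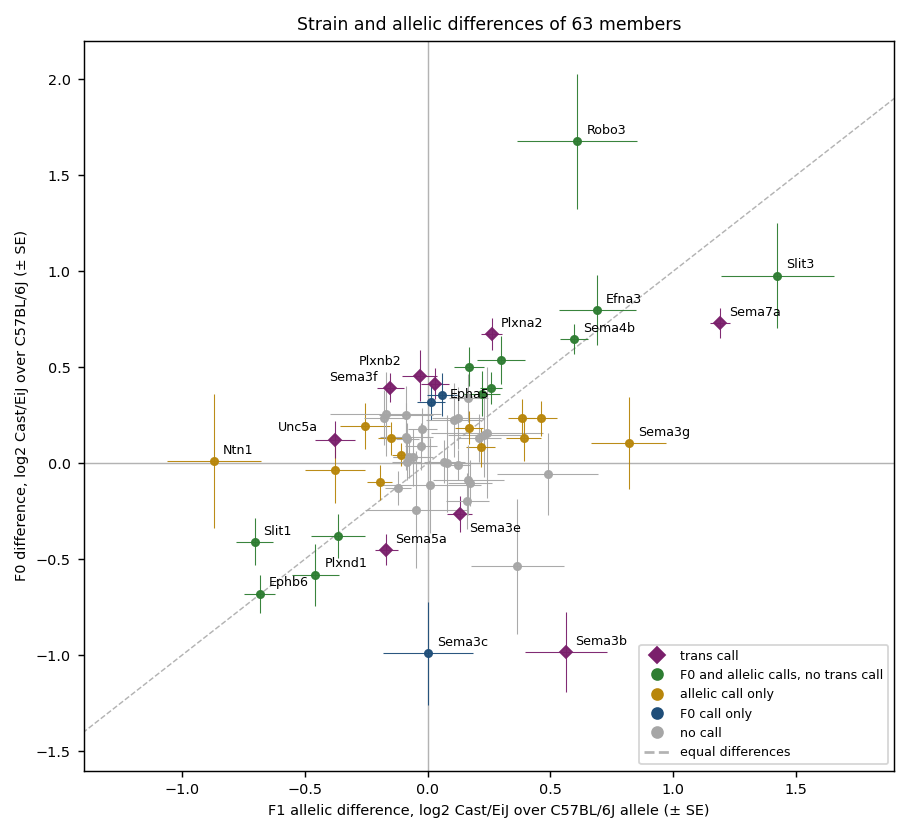
Log2 difference between F0 strains (vertical, ± SE) against log2 difference between alleles in F1 (horizontal, ± SE) for the 63 members tested in both, with the dashed line marking equal differences. Ephb6 and Sema4b sit on or near the line, Sema7a lies right of it, and Sema3b and Sema3f lie in the quadrants of opposite sign.

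The trans part, the F0 difference minus the allelic difference, was tested in the same limma fit. It passed for 9 of 64 members, or 14.1%, against 14% of all genes. It was positive, meaning that F0 Cast/EiJ was higher than the alleles alone gave, for 5 members, beside 5.64% of all genes, and negative for 4, beside 8.31%. Of the positive calls, 4 were receptors (Epha5, Plxna2, Plxnb2 and Unc5a) and the other was Sema3f, and the 4 negative calls were semaphorins (Sema3b, Sema3e, Sema5a and Sema7a). The members tested were 30 receptors and 34 ligands, most of them semaphorins. Only 4 of the 9 calls were kept in every alternative setting.

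Sema3b had the widest gap. F0 Cast/EiJ was lower (45.3 to 68.5 against 89.7 to 127 count equivalents), whereas in F1 the Cast/EiJ allele was the higher one in 5 of 6 libraries, at 58.4, 85.0 and 106 against 38.1, 58.4 and 69.5 for the C57BL/6J allele (lowest, median, highest). The gap was -1.55 ± 0.30 on the log2 scale (SE; limma adjusted p = 0.0024). The allelic call alone was lost without F1 CastxB6 replicate 2, at 0.36 with an adjusted p of 0.073, and with F1 CastxB6 alone, at 0.41 with an adjusted p of 0.2. The summed markers of the retinal pigment epithelium, most of which was Ttr, also differed between the F0 strains. Of these markers 2 were tested and 1 was called lower. Their part in the Sema3b values was not tested.

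Its neighbour Sema3f went the other way. The F0 Cast/EiJ libraries were higher, but the Cast/EiJ allele was lower in 6 of 6 F1 libraries, at 1880, 1955 and 2360 count equivalents against 2090, 2205 and 2620 for the C57BL/6J allele. The ranges overlapped across libraries, and the gap was 0.54 ± 0.10 (SE; limma adjusted p = 0.0011). The allelic difference of -0.15 lost its call in either cross alone, at -0.20 with an adjusted p of 0.053 in F1 B6xCast and -0.10 with an adjusted p of 0.32 in F1 CastxB6.

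Sema7a and Plxna2 kept their direction and changed in size. For Sema7a the allelic difference exceeded the F0 difference, with a gap of -0.46 ± 0.07 (SE; limma adjusted p = 0.00046). For Plxna2 the F0 strains differed more than the alleles, from 2680, 3050 and 2880 count equivalents in F0 C57BL/6J to 4170, 5000 and 4570 in F0 Cast/EiJ, against 3245 and 3910 as allele medians, with a gap of 0.41 ± 0.08 (SE; limma adjusted p = 0.0018). These 2 members, with Sema3b and Sema3f, kept the trans call in every alternative setting.

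For Plxnb2 and Epha5 the F0 strains differed and the alleles did not pass. Plxnb2 had 926, 1290 and 1100 against 1300, 1560 and 1670 count equivalents in F0 and allelic medians of 1320 and 1310, a gap of 0.49 ± 0.13 (SE; limma adjusted p = 0.02). It was 0.37, 0.46 and 0.41 with adjusted p of 0.063, 0.054 and 0.066 without F0 C57BL/6J replicate 1, F0 Cast/EiJ replicate 2 and F0 Cast/EiJ replicate 3. Epha5 had 582, 589 and 613 against 826, 730 and 827 count equivalents in F0 and allelic medians of 615 and 666, a gap of 0.38 ± 0.11 (SE; limma adjusted p = 0.023), and leaving out any of 5 single libraries took the adjusted p to between 0.053 and 0.064.

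Unc5a showed the reverse, with F0 libraries that overlapped (726, 699 and 668 against 865, 732 and 691 count equivalents) and a Cast/EiJ allele that was lower in 6 of 6 libraries, at medians of 543 against 684. Its gap was 0.50 ± 0.15 (SE; limma adjusted p = 0.031), and any of 5 single libraries left out ended the call, F0 Cast/EiJ replicate 1 most, at 0.40 with an adjusted p of 0.1. Sema3e, the ligand of Plxnd1, gave -0.39 (SE 0.10) with neither difference called on its own. On the deposited log expression the Sema3e gap was -0.22 and the call was lost (limma adjusted p = 0.23). Sema5a gave -0.28 (SE 0.09; limma adjusted p = 0.04), a call lost without any of 8 single libraries.

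**Figure D4:**
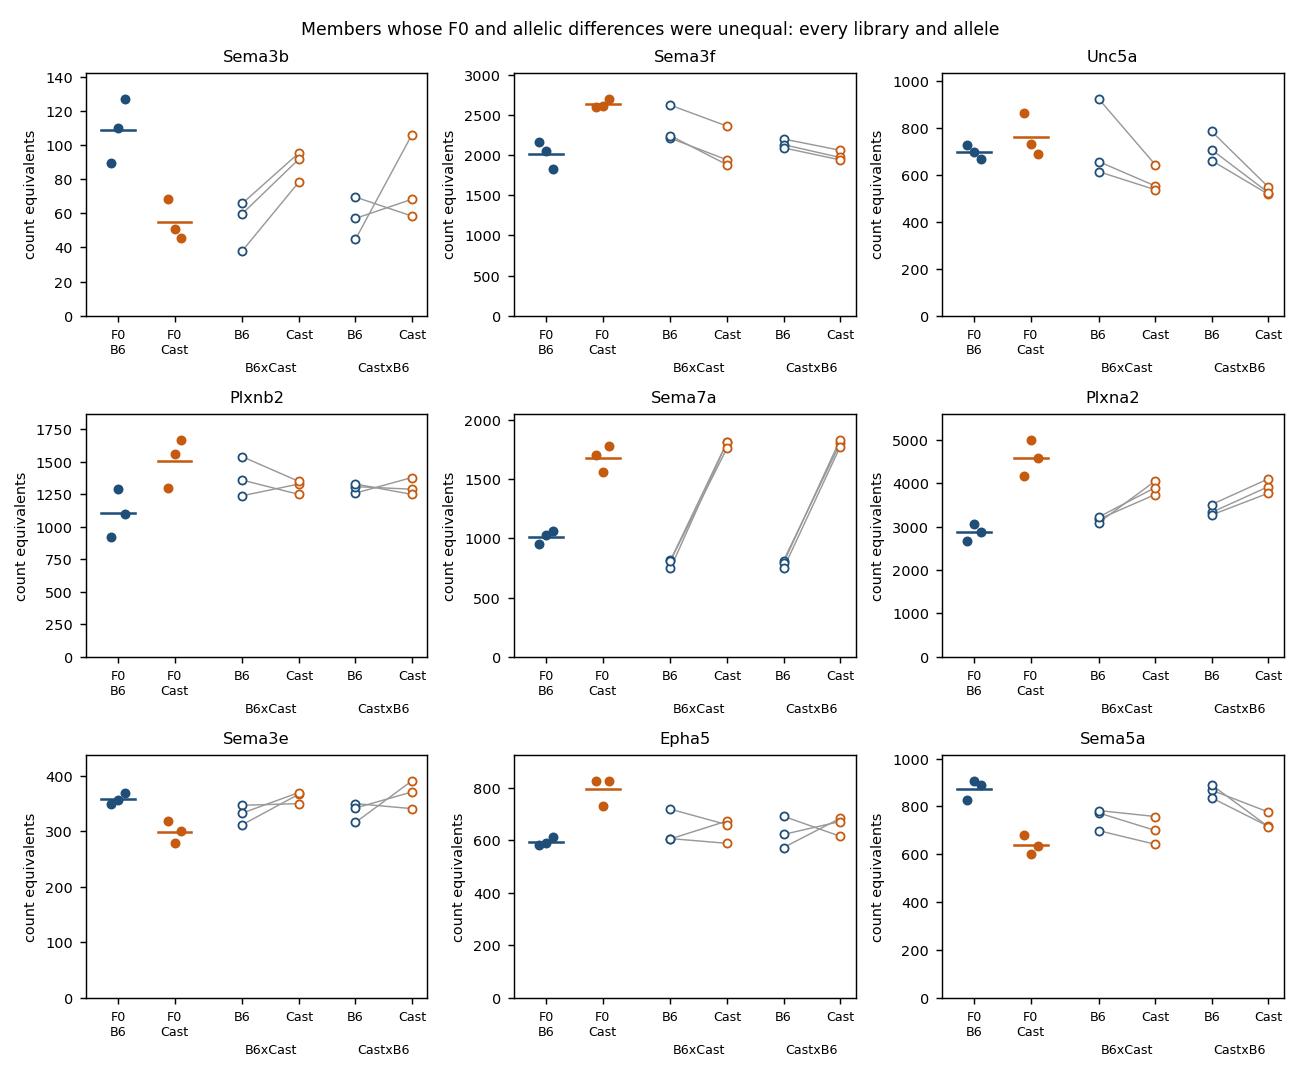
Count equivalents of the 9 members with a trans call, drawn as filled F0 points with the mean as a bar and open, joined points for the C57BL/6J (B6) and Cast/EiJ (Cast) alleles of each F1 library. For Sema3b the F0 points fall from B6 to Cast while 5 of 6 allele lines climb, and for Sema3f the F0 points climb while all 6 allele lines fall.

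No member passed as a parent-of-origin effect, the maternal minus the paternal allele averaged over both crosses. Limma called 0 of 64 members, with 7 at an unadjusted p under 0.05, and edgeR on unique hits called 0, with 4 at an unadjusted p under 0.05, while limma called 0.492% of all genes. By limma, unadjusted p under 0.05 covered 10.9% of the members and 6.49% of all genes. The lowest adjusted p was that of Sema4b, whose maternal allele was higher by 0.25 (SE 0.06; limma adjusted p = 0.065), and without F1 CastxB6 replicate 1 Sema4b was called at 0.29 with an adjusted p of 0.045. Total expression in the reciprocal crosses gave 0 of 65 members by limma, with 2 at an unadjusted p under 0.05 (Ephb4 at 0.33 and Unc5c at 0.17 on the log2 scale), and 0 by edgeR, also with 2, beside 0.0401% of all genes by limma.

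Partners of these families were read from a list of 96 co-receptors, adhesion partners, morphogen components, signal transducers and regulators of retinal projection, of which 95 were matched. Between the F0 strains, 16 of 92 tested were higher in F0 Cast/EiJ and 13 lower, or 31.5% beside 33.8% of all genes. The split turned with the scaling, to 8 higher of 23 called with TMM factors and 12 higher of 26 with DESeq2. The total of 29 fell to 19 without F0 C57BL/6J replicate 2 or F0 Cast/EiJ replicate 2 and to 18 without F0 Cast/EiJ replicate 3. Wnt5a, a secreted Wnt that repels axons, fell by 1.37 (SE 0.25), from 77.3 ± 10.4 to 30.1 ± 8.55 count equivalents (SD, n = 3 each), Dcc, the attractive netrin receptor, fell by 0.66 (SE 0.18) and Mical2, an enzyme that disassembles actin, by 0.64 (SE 0.14). Srgap2, a GTPase activator downstream of Robo, rose by 0.78 (SE 0.08) and Tiam1, an activator of Rac, by 0.65 (SE 0.21).

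Between the alleles, 24 of 89 partners were higher from the Cast/EiJ allele and 14 lower, or 42.7% in all beside 47% of all genes. Tiam1 at 0.97 (SE 0.13), Chl1, an adhesion partner of neuropilins, at 0.67 (SE 0.08) and Fzd3, a Wnt receptor of axons, at 0.48 (SE 0.11) led the first direction. Cfl1, which severs actin filaments, at -0.93 (SE 0.06), Vax2, a regulator of the ventral retina, at -0.76 (SE 0.08) and Dcc at -0.62 (SE 0.09) led the other. Dcc was thus lower from Cast/EiJ in both comparisons, with 311 ± 51.7 against 198.3 ± 42.1 count equivalents in F0 (SD, n = 3 each) and 289.7 ± 26.2 against 187.5 ± 12.9 for the alleles (SD, n = 6 each). The trans part passed for 11 of 89 partners, 8 positive and 3 negative, or 12.4% beside 14% of all genes. Signal transducers made up 10 of the 11 calls and 45 of the 89 partners tested. The split was 4 positive of 8 with TMM factors and 6 positive of 16 with edgeR on unique hits, and the count was 7 without F0 Cast/EiJ replicate 1, and also 7 when any 1 of the F1 CastxB6 replicates was left out.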

How the data were processed

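Retinal mRNA of 12 pools was sequenced from randomly primed, unstranded libraries. Per the labels and the study's methods, the authors trimmed reads with Trim Galore 0.2.6, aligned them with Bowtie 0.12.9 to transcript sequences of each strain (NCBI37, Ensembl 67) and estimated gene and allele levels with MMSEQ. The deposited unique hits are counts of reads that fit 1 gene or allele alone. The deposited count equivalents are a signal that the authors scaled to totals of 12648792 to 13843914 per column and rounded to 3 significant digits, so they are not raw counts. The deposited log expression is a natural log, and its exponential was read as FPKM. A further 54 per-library columns (copies of the log expression with its SD) and the authors' model results, posterior probabilities and imprinting Bayes factors were not used.

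Members and lists were chosen with earlier results of these data known. Symbols were a family stem followed by a number, or by 1 letter for Sema3 to Sema7 and Unc5; a literal reading with numbers throughout takes 46 genes. The text names every called member, the highest and lowest of each family by F0 FPKM and 10 members known from the eye or visual pathway, gives full statistics for the 5 largest called differences per comparison, and names the 3 largest in each direction of the partner list, except 1 that is not reported here. A few others named beside them were chosen after their values were seen.

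Count equivalents were compared as log2(value + 1) with limma 3.58.1 in R 4.3.3, with trend, over all genes that passed a filter. F0 strains needed 10 count equivalents in at least 3 libraries. Alleles, the trans part and parent of origin were contrasts in 1 model of 18 columns with the F1 library as a block, for polymorphic genes on autosomes whose allele-specific unique hits averaged 10 or more. Calls were made at a Benjamini-Hochberg adjusted p under 0.05 over all genes tested. Fold changes are on the log2(value + 1) scale, which understates those of low genes. Alternatives were a pseudocount of 5, TMM factors, a replicate block, the deposited log expression, no filter, a minimum of 50 unique hits, edgeR 4.0.16 on unique hits, DESeq2 1.42.0, each cross alone and leaving out each library. The models were tested on simulated data before use. Depth was 8158534 to 12363291 unique hits per library, and counting error alone is widest for members with few hits. Promoter motifs were counted in RefSeq windows of GRCm38.p6, and GGGCGG was added after seeing the data.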

Additional observations from a re-analysis of the deposited data

Results flagged for a closer look

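The values below were singled out because the F0 difference and the allelic difference of the same gene differed by a test of that difference (limma, Benjamini-Hochberg adjusted p under 0.05). Written as the F0 minus the allelic log2 difference, they were 0.38 for Epha5, 0.41 for Plxna2, 0.49 for Plxnb2, -1.55 for Sema3b, -0.39 for Sema3e, 0.54 for Sema3f, -0.28 for Sema5a, -0.46 for Sema7a and 0.50 for Unc5a. None of the 31 members called between alleles had an F1 library far from the other 5 by Dixon's criterion for 6 values, which chance alone passes in about 1 of 20 groups. The part of the marker shifts between the F0 strains in these gaps was not tested.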

How the results depend on the processing

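Depth limits the low members most: Slit3, Ntn1, Efna3 and the shorter Ntng1 entry rested on 10.8 to 17.7 allele-specific unique hits per F1 library. The 22 F0 calls became 12 with the deposited log expression and 9 with no filter, and 14 to 19 when 1 library was left out. The 31 allelic calls became 20 with either cross alone and 23 to 31 when 1 library was left out. The 9 trans calls became 7 to 9 when 1 library was left out, and parent-of-origin calls 0 to 1. Among partners, the 29 F0 calls became 19 with the deposited log expression, 16 with no filter and 18 to 23 with 1 library left out, the 38 allelic calls 23 with F1 CastxB6 alone and 28 to 40 with 1 library left out, and the 11 trans calls 6 with the deposited log expression, 6 with no filter and 7 to 12 with 1 library left out. Signs turned for the shorter Ntng1 entry, at 0.17 with F1 B6xCast alone, and for the Sema4d alleles, at -0.023 with the deposited log expression. Same-numbered libraries deviated together in part. Among the F0 strains and F1 B6xCast the correlations were 0.285 to 0.306 for replicate 1 and 0.134 to 0.153 for replicate 3, each its own best match, but 0.0131 to 0.0521 for replicate 2, and those with F1 CastxB6 were -0.149 to 0.0466. Not every pair passed 0.1 and no label ties the numbers to a shared source, so the numbers were not taken as pairs. A replicate block gave 26 F0, 31 allelic and 11 trans calls among members and 44 F0 calls among partners. The causes of these shifts were not tested.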

Other observations

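Efnb1, Plxna3 and Plxnb3, relatives of these families on the X chromosome, were outside the set. In the F1 males they had 978, 1291 and 2 maternal unique hits and 0 paternal unique hits.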
